A study of Homo sapiens with 4 samples.

Results

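Kept promoter peaks are the places near gene starts where c-MYC was called in all 3 treatments of this experiment. Their c-MYC ChIP-seq came from MIA PaCa-2, an established human pancreatic ductal adenocarcinoma cell line, which received solvent alone (DMSO), AMG510 (an inhibitor, 100 nM) or trametinib (10 nM, against MEK) over 8 h. Each treatment gave 1 c-MYC library, and a non-specific IgG library from the DMSO cells served as the control. No group had a replicate, so no difference between treatments has a replicate check, and every interval below covers counting error only. The members were chosen by the peak calls themselves, with positions on GRCh38. A member is a DMSO c-MYC peak whose summit, its highest point, lay within 1 kb of the start of a protein-coding transcript and which overlapped by at least 1 bp a called AMG510 peak and a called trametinib peak. There were 792 such peaks among 4617 DMSO promoter peaks (17.2%, Wilson 95% interval 16.1 to 18.3), out of 9552 DMSO c-MYC peaks and 28327 peaks in the 4 lists. Of the same 4617 peaks, 33.1% overlapped an AMG510 peak and 27.7% a trametinib peak. Another 738 overlapped an AMG510 peak only, 487 a trametinib peak only and 2600 neither. Mitochondrial DNA held a further 4 DMSO promoter peaks, 2 of them with both overlaps, and was left out.

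MYC is a transcription factor that binds DNA as a heterodimer with MAX. The dimer prefers the E-box CACGTG and tolerates some variants of it, and it is found mostly at open, CpG-rich promoters. Genes for ribosomal proteins, for the nucleolar factors that assemble ribosomes and for nucleotide and polyamine synthesis are among its best-known targets in growing cells. MEK inhibitors such as trametinib block the kinase that activates ERK, and ERK in turn phosphorylates and stabilises the MYC protein.

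The kept peaks carried a start of 914 of the 4761 protein-coding genes with a DMSO promoter peak, which is 19.2% of them, against 19663 such genes in the annotation. At 125 of the 792 peaks the starts of 2 or more genes lay within 1 kb, so that these genes share a peak and cannot be told apart. Peaks are named here by the gene of the nearest start, and 787 genes were named in this way. ENO1, NUDT3, MSL2, E2F3 and MATR3 each had 2 kept peaks, which makes 5 genes with more than 1. Another DMSO promoter peak that was not kept lay at 87 of the 92 genes that had a kept peak and at least 1 further DMSO promoter peak.

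Sequences from peaks with an E-box near all 3 summits are shown first, since there a MYC recognition sequence lay close to the peak in every treatment. An E-box lay within 100 bp of the DMSO, AMG510 and trametinib summits at 133 kept peaks, and the nearest E-box was the same one in all 3 at 110 of these. The 10 of highest DMSO fold enrichment are given on GRCh38, along the strand of the nearest gene, with each E-box in capitals. Each window is centred on the E-box nearest the DMSO summit, which need not be the one nearest a drug summit.
COLEC11 (chr2:3605472-3605531, plus strand): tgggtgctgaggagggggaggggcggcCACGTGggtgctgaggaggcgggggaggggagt
NME1-NME2 (chr17:51153581-51153610, plus strand): agtgctgcgaacCACGTGggtcccgggcgc
PRDM15 (chr21:41879509-41879568, minus strand): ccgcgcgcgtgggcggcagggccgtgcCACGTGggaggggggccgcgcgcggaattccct
DUSP2 (chr2:96145199-96145258, minus strand): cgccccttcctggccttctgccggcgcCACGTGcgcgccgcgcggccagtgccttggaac
PPRC1 (chr10:102133662-102133721, plus strand): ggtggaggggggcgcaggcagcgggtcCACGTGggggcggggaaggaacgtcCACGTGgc
PFN2 (chr3:149971282-149971341, minus strand): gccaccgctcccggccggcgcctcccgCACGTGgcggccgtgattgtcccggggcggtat
ZNF131 (chr5:43120935-43120964, plus strand): cccaaccgaacgCACGTGcgccagcggggc
MRPL3 (chr3:131502888-131502917, minus strand): ggctactgcgtcCACGTGgcggtggcgtgg
SNX5 (chr20:17968608-17968637, minus strand): gctctgggggagCACGTGgcgccctgctcg
CCDC88C (chr14:91418150-91418209, minus strand): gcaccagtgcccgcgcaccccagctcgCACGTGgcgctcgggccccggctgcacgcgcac
In all 10 windows at least 1 base next to the capitals is a G or a C. The E-box at the centre lay within 100 bp of all 3 summits at 8 of the 10 peaks and was the nearest to all 3 at 4 of them. At PFN2, an actin-binding profilin, it lay 36, 9 and 12 bp from the DMSO, AMG510 and trametinib summits. At SNX5 (a sorting nexin), whose start region is shared with MGME1, the distances were 0, 62 and 8 bp. The exceptions were NME1-NME2 and ZNF131, where the AMG510 summit lay 297 and 168 bp from the E-box shown and had another one nearby.

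Familiar growth genes with a kept peak and an E-box near the DMSO summit are shown for comparison, and were picked after their values were seen.
NPM1 (chr5:171388573-171388602, plus strand): gCACGTGgttgcCACGTGgttgggggaggg
NCL (chr2:231463972-231464001, minus strand): agcgcggcctgcCACGTGggccgcgccgcg
ODC1 (chr2:10447990-10448019, minus strand): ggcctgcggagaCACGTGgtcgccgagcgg
HK2 (chr2:74834994-74835053, plus strand): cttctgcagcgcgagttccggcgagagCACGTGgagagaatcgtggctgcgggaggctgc
RPS19 (chr19:41860403-41860432, plus strand): tagagccgcggcCACGTGcgagcggcaggc
RPSA (chr3:39406902-39406931, plus strand): gcctgcggcccgCACGTGgccaggctcggg
NPM1 and NCL encode the abundant nucleolar proteins nucleophosmin and nucleolin, ODC1 the first enzyme of polyamine synthesis, HK2 the hexokinase that opens glycolysis, and RPS19 and RPSA proteins of the small ribosomal subunit. The NPM1 window holds 2 E-boxes, and the one nearer the summit lies 27 bp before the nearest start. The HK2 E-box shown lay 1 bp from the DMSO summit, 39 bp from the AMG510 summit and 42 bp from the trametinib summit. LDHA and PRMT1, not shown, also had an E-box near the DMSO summit, at 2 and 17 bp. That E-box lay 328 and 198 bp from their AMG510 summits.

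No E-box was found within 100 bp of any of the 3 summits at 502 of the 792 kept peaks. Strong peaks of that kind are shown with the base at the DMSO summit in capitals.
RPL5 (chr1:92832199-92832228, plus strand): cgcgcgtcgcagggGccggatggcgttaga
RPS3A (chr4:151099716-151099745, plus strand): taagtcgcgactgtCgtggcgtcttgcttt
BRWD1 (chr21:39313785-39313814, minus strand): tttgcctccgcgtcaCtttctcctcatcga
EIF5A (chr17:7308272-7308331, plus strand): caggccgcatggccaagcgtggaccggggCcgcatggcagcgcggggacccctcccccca
RPL5 and RPS3A encode proteins of the large and the small ribosomal subunit, BRWD1 a bromodomain protein and EIF5A a translation factor modified from a polyamine.

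Kept means called in each list, not bound at an equal level. MACS2, the peak caller the authors used, reports a fold enrichment for each peak, which sets the tag pileup of the summit against the local background of the same library. The median fold enrichment of the kept peaks was 6.58 in DMSO (quartiles 5.39 and 8.18), 5.22 in AMG510 (4.49 and 6.40) and 5.27 in trametinib (4.53 and 6.30). Median summit tags were 25 (DMSO), 16 (AMG510) and 17 (trametinib). The 2600 promoter peaks absent under both drugs had a median fold enrichment of 4.55 and 14 tags in DMSO. The kept peaks were therefore the stronger end of the DMSO list, as a comparison of terciles of DMSO fold enrichment also showed. Of the strongest tercile (fold enrichment 5.44 to 16.75) 38.1% were kept, of the middle tercile 9.39% and of the weakest tercile (2.64 to 4.43) 4.01%. That left 586 kept peaks in the strongest tercile, 144 in the middle and 62 in the weakest.

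To set libraries side by side, tags at the summit were divided by the genome-wide background of the library, which ranged from 1.42 to 1.57 tags over the 3 c-MYC libraries. On this scale the AMG510 value was below the DMSO value at 668 of the 792 kept peaks (84.3%), with a median log2 ratio of -0.48. The trametinib value was below it at 673 (85%), with a median of -0.47. Both drugs were below DMSO at 602 peaks, neither at 53, and the drugs were split at 137. These values come from the same calls that chose the members. Strong DMSO peaks were favoured and drug values are cut from below at the calling limit, so no test was made. Across the kept peaks the 3 libraries ranked the sites alike only in part, with a Spearman rho of 0.61 for DMSO and AMG510, 0.60 for DMSO and trametinib and 0.55 for AMG510 and trametinib (n = 792 peaks, which share a library on each axis).

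**Figure D1:**
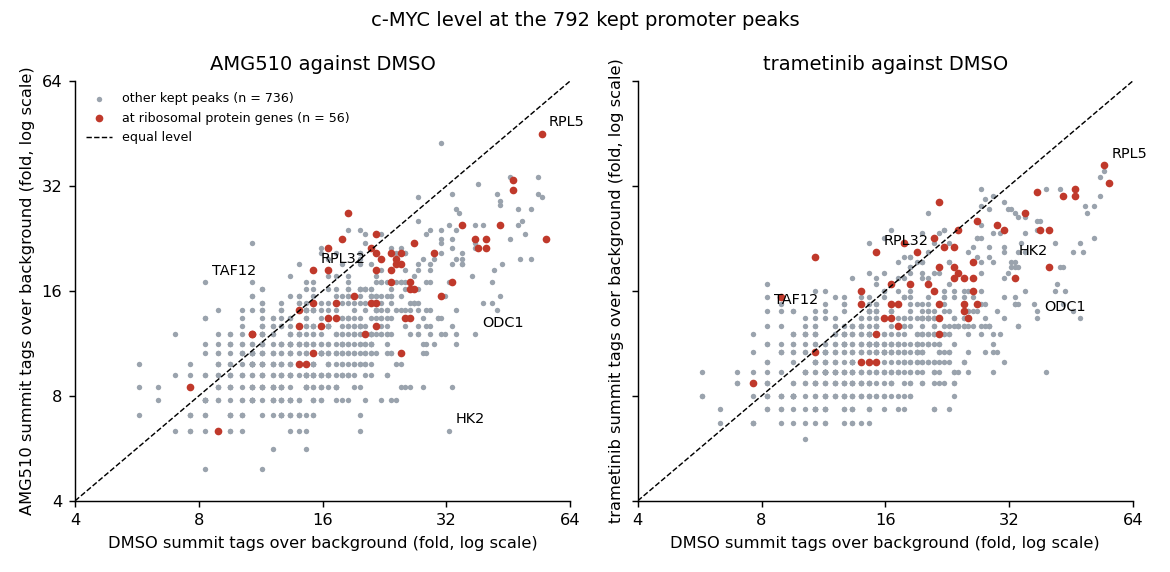
Tags at the summit over the genome-wide background of the library (fold, log scales) in AMG510 (left) and trametinib (right) against DMSO, 1 point per kept peak and 1 library per axis. Most points lie under the dashed line of equal level, 668 for AMG510 and 673 for trametinib. The 56 peaks at ribosomal protein genes are in red.

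The AMG510 and trametinib peaks overlapped each other at 740 of the 792 kept peaks (93.4%). The summit under AMG510 lay a median of 70 bp from the DMSO summit (quartiles 30 and 140), and that under trametinib 56 bp (24 and 121). Both drug summits were within 100 bp of the DMSO summit at 402 kept peaks and within 50 bp at 169. Called peaks were narrower under the drugs, with median widths of 457 bp (DMSO), 311 bp (AMG510) and 296 bp (trametinib). The shortest peak of each list was 177, 157 and 163 bp in the same order. The rule favoured strong DMSO peaks, and a drug effect on width was not tested. The AMG510 summit was itself within 1 kb of a protein-coding start at all 792 kept peaks, and the trametinib summit at 791. In each drug list, 2 kept peaks overlapped the same drug peak.

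Peaks near the limits of the rule show how thin it can be. The trametinib peak at AMZ2 overlapped the DMSO peak by 1 bp and the one at MRRF, a start region shared with RBM18, by 2 bp. The members farthest from a start were IGF1R, the insulin-like growth factor receptor, with its summit at -962 bp, and TFAP4, an E-box binding factor, at 942 bp. Just outside were AGPAT3, whose DMSO and AMG510 peaks touched with a gap of 0 bp, and CNBP, with a gap of 5 bp to an AMG510 peak. YBX3 and PTP4A1 had peaks in all 3 lists at 1007 and 1044 bp from a start. Of the 1225 promoter peaks that overlapped a peak of 1 drug list, 28 lay under 100 bp from a peak of the missing list.

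The 10 kept peaks that stood highest in all 3 lists at once were found from the percent of each list with a lower fold enrichment, ranked by the lowest of the 3 percentages. Ribosomal protein genes held 4 of the 10 places. RPL5 came first, with 86 tags in DMSO (Poisson interval 68.8 to 106), 64 in AMG510 (49.3 to 81.7) and 55 in trametinib (41.4 to 71.6). Its intervals for DMSO and AMG510 overlap, and those for DMSO and trametinib overlap less. The RPL5 peak, chr1:92832044-92832545, has its summit in intron 1, 104 bp after the nearest start. RPS3A had 38, 27 and 36 tags in DMSO, AMG510 and trametinib, and RPS23 had 73, 47 and 45. RPL35, whose start region is shared with ARPC5L, a subunit of the actin-nucleating complex, had 73, 44 and 47. BRWD1 had 52, 43 and 40 tags and GDI2, which extracts Rab proteins from membranes, 46, 34 and 45. MRPL3, a protein of the mitochondrial ribosome, had 60, 46 and 38 tags. PRRC2B had 84, 43 and 51, the shared SNX5 and MGME1 region 67, 43 and 47, and KLF16, a zinc-finger repressor, 68, 41 and 45. The intervals of the 3 treatments overlapped at each of these 10 peaks except PRRC2B, where those of DMSO and AMG510 were apart.

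The kept peaks that lay lowest under the drugs against DMSO were all strong in DMSO and all had an E-box within 100 bp of the DMSO summit. They were chosen by that ratio, which itself favours high DMSO tags and separate intervals. The E-box share of the kept peaks also rose with DMSO fold enrichment, to 42.4% in the highest of 4 groups of about equal size. PRMT1, the main arginine methyltransferase of the cell, had 62 tags in DMSO (47.5 to 79.5), 21 in AMG510 (13 to 32.1) and 14 in trametinib (7.65 to 23.5). ODC1 had 59 tags in DMSO, 17 under AMG510 and 20 under trametinib. For both genes the drug intervals lay below that of DMSO. HK2 had 51 tags in DMSO, 9 under AMG510 and 29 under trametinib, and its log2 ratio of -2.35 under AMG510 was the lowest of all 792. The shared start region of TAF9, AK6 and RAD17 (a subunit of the general factor TFIID, a nuclear adenylate kinase and a checkpoint loader) had 52, 12 and 23 tags. That of METTL1 and EEF1AKMT3, which methylate transfer RNA and elongation factor, had 37, 11 and 13.

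At the other end, TAF12, another TFIID subunit, had 13 tags in DMSO, 24 under AMG510 and 21 under trametinib. HNRNPA1, an RNA-binding splicing regulator, had 13, 16 and 25. TWSG1, a secreted protein that binds BMP ligands, had 9, 12 and 14, RBM17, a splicing factor, 9, 14 and 12, and HBP1, an HMG-box repressor, 11, 17 and 14. The intervals of the 3 treatments overlapped at each of these 5 peaks. In DMSO they lay close to 8 tags, the smallest pileup that was called where the background was lowest. Their choice by the highest ratio itself favours low DMSO tags. Of these 5, only HNRNPA1 had an E-box within 100 bp of the DMSO summit.

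**Figure D2:**
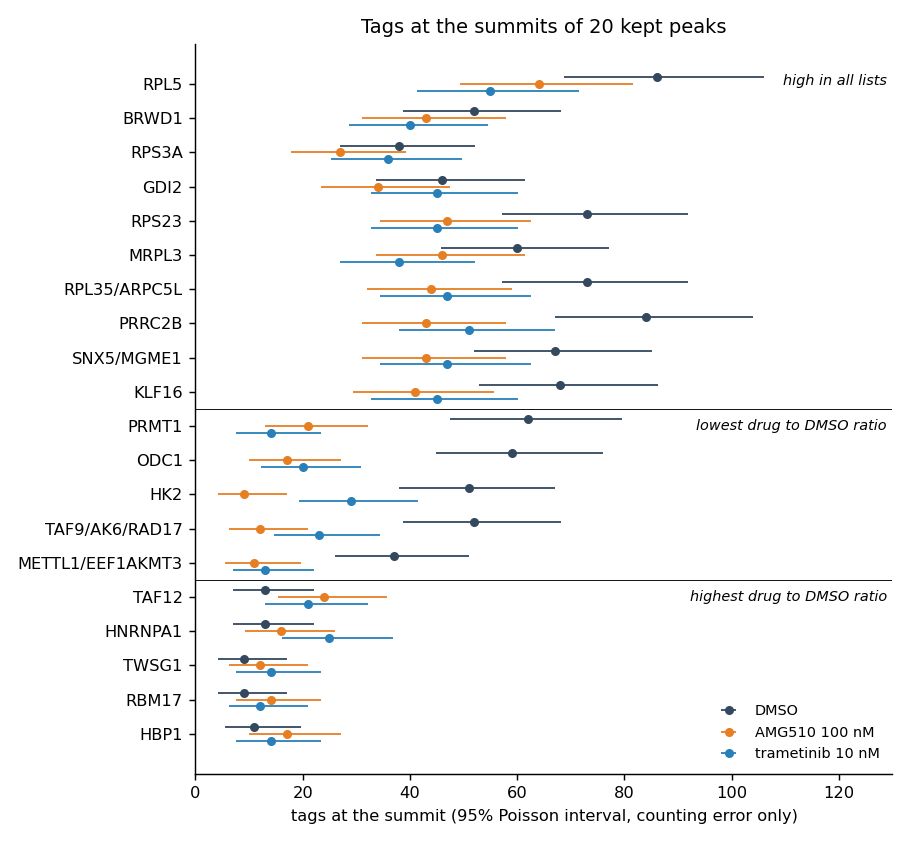
Tags at the summit in DMSO, AMG510 and trametinib (1 library each) at the 10 kept peaks highest in all 3 lists, the 5 with the lowest and the 5 with the highest mean log2 ratio to DMSO. Bars are 95% Poisson intervals for counting error only. At PRMT1 the DMSO interval starts at 47.5 and both drug intervals end under it, while at TAF12 the 3 intervals overlap. The peaks of lowest and highest ratio were chosen on these values, so their gaps are not a test.

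The sequence at the summits was not used to choose the peaks. An E-box lay within 100 bp of the DMSO summit at 226 of the 792 kept peaks (28.5%, Wilson 95% interval 25.5 to 31.8). In windows of the same length 1 kb to either side of the summit the share was 3.66%. Over windows placed 91 bp after the canonical start of every protein-coding gene, the median place of the kept summits, it was 2.76%. Among the 2600 peaks absent under both drugs the share was 12.3%, and the difference was 16.3 percentage points (Newcombe 95% interval 13 to 19.7). The difference was 10.9 points (6.71 to 15.1) against the peaks with AMG510 only and 6.56 points (1.63 to 11.3) against those with trametinib only. Those peaks were weaker in DMSO, with median fold enrichments of 5.05 and 5.03 against 6.58 for the kept peaks. Neither comparison was made within groups of DMSO strength.

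Strength in DMSO went with much of the difference between kept and absent peaks. In the strongest tercile 32.9% of the kept and 19.9% of the absent peaks had an E-box, a difference of 13.1 points (7.81 to 18.1). In the middle tercile the shares were 17.4% and 13.5% (difference 3.88 points, -1.93 to 11.2), and in the weakest 12.9% and 8.02% (4.89 points, -1.56 to 15.5). The last 2 intervals include 0. Even in the strongest tercile the kept peaks were stronger, with a median of 29 tags in DMSO against 19. Within 10 equal groups of DMSO fold enrichment, an alternative added after seeing the data, the mean difference was 5.24 points (1.98 to 10.8), with a higher share among the kept peaks in 9 of 10 groups and an interval above 0 in 1. That is less than the 16.3 points over all peaks by more than 1.5 times.

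**Figure D3:**
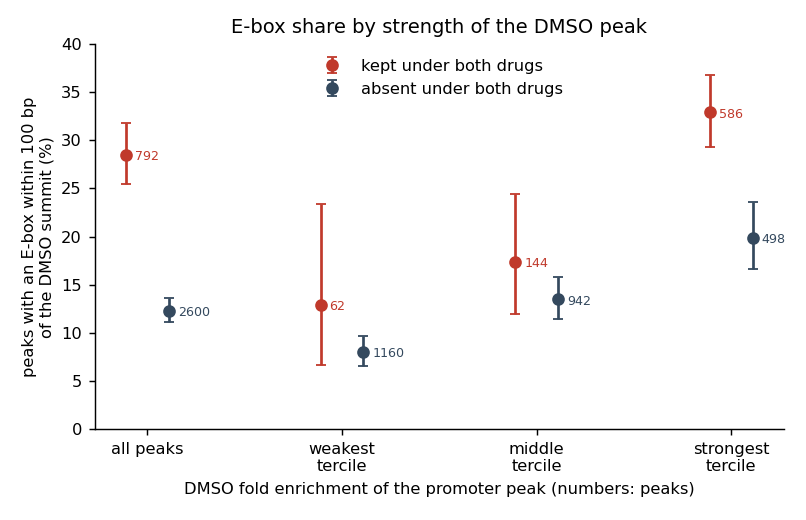
Percent of promoter peaks with CACGTG within 100 bp of the DMSO summit, for all peaks and within terciles of DMSO fold enrichment, with Wilson 95% intervals and the number of peaks beside each point. The points for kept and absent peaks are apart for all peaks (28.5% and 12.3%) and in the strongest tercile (32.9% and 19.9%), while in the other terciles the intervals overlap.

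Among the kept peaks themselves the share with an E-box near the DMSO summit was also taken by level in each library. Over 4 groups of about equal size, from the lowest to the highest DMSO fold enrichment, the share with an E-box was 16.2%, 21.7%, 33.8% and 42.4%. Over 4 such groups by AMG510 fold enrichment it was 24.7%, 27.3%, 30.8% and 31.3%, and over those by trametinib 21.7%, 23.5%, 33% and 36%. The E-box is that of the DMSO summit in all 3 orderings, so they cannot be compared with each other. The 226 kept peaks with an E-box had median tags of 29.5, 17 and 18 (DMSO, AMG510, trametinib), and the 566 without one had 24, 16 and 17.

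The E-box lay close to the summit. Around the DMSO summit the kept peaks had 9.85 and 10.10 E-boxes per 100 peaks in the 50 bp on either side, which dropped to 5.18 and 6.94 in the next 50 bp. The absent peaks had 4.00 and 4.15 in the central bins. Where an E-box was within 100 bp, its median distance from the summit was 35 bp (DMSO), 40 bp (AMG510) and 39 bp (trametinib). The share of kept peaks with an E-box was 25.4% (22.5 to 28.5) around AMG510 summits and 27.9% (24.9 to 31.1) around trametinib summits, intervals that overlap that of DMSO.

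**Figure D4:**
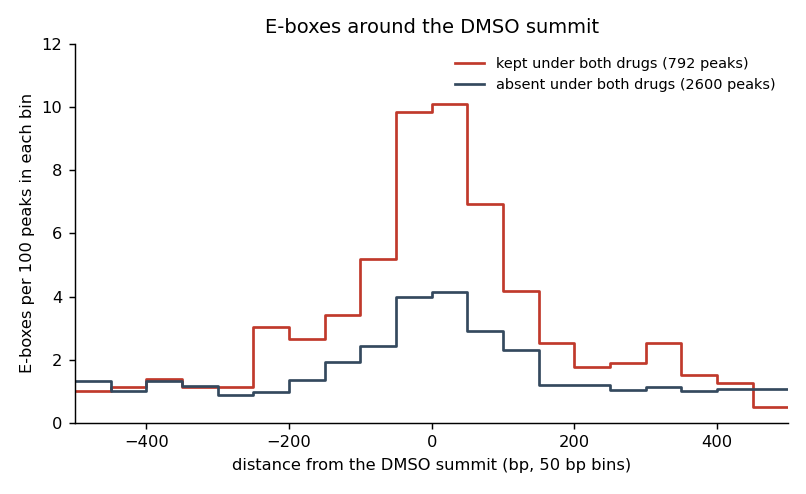
Number of CACGTG matches per 100 peaks in 50 bp bins of distance from the DMSO summit, for the 792 kept peaks and the 2600 peaks absent under both drugs. The kept peaks reach 10.10 per 100 in the bin just after the summit, where the absent peaks reach 4.15, and both are low at the edges of the plot.

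The bases next to the E-box differed as well, a feature examined after the data were seen. The most frequent 8 bases at the nearest E-box, read on either strand, were CCACGTGC, at 83 of the 226 kept peaks with an E-box (36.7%, 30.7 to 43.2) and 22.9% (18.6 to 27.8) of the 319 absent ones. CCACGTGG followed with 23% and 18.2%. The kept peaks were not highest for either form. CCACGTGC stood at 38.5% for the peaks with AMG510 only and 25.2% for those with trametinib only. CCACGTGG stood at 13.8% and 28% in the same order. An E-box with a T before it on either strand (TCACGTG) was found at 11 of 226 kept peaks (4.87%, 2.74 to 8.5) and at 73 of 319 absent peaks (22.9%, 18.6 to 27.8). The difference was -18 points (-23.4 to -12.4). Within the strongest tercile the shares were 3.63% of 193 and 19.2% of 99, a difference of -15.6 points (-24.6 to -8.06). In the weakest tercile the kept peaks held 8 E-boxes, 3 of them with the T, and the intervals of the weakest and middle terciles included 0. For the peaks with AMG510 only the share was 16.9% and for those with trametinib only 14%. The 11 kept peaks with it were at TAF9, ITFG2, YBX1, RPS2, RUVBL1, CLN6, TEX10, CFDP1, RAB11FIP2, PPM1A and UTP18.

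E-box variants were also frequent. CACGCG lay within 100 bp of 30.8% of kept and 19.5% of absent summits (difference 11.3 points, 7.86 to 15), against 8.51% of the windows at all protein-coding starts. The difference for CACGCG was 15.2 points (7.43 to 23.7) in the middle tercile and 4.53 points (-0.835 to 9.81) in the strongest, the reverse order of the E-box itself. CATGTG was present at 11% and 6.12%, and CACGAG at 11.9% and 8.85%. CATGCG, the last form searched, was present at 7.95% and 6.23% (1.72 points, -0.236 to 3.99, an interval that includes 0). Within terciles every CACGAG and CATGCG interval included 0, as did those of CATGTG in the weakest and middle terciles. For the peaks with AMG510 only and with trametinib only, CATGTG stood at 7.05% and 12.3%. In the same order CACGAG stood at 12.9% and 11.1%, and CATGCG at 8.27% and 6.57%. At least 1 of these 5 forms, on either strand, was present at 546 kept peaks (68.9%, 65.6 to 72.1), at 44.5% of the absent peaks and at 21.8% of all start windows. The kept minus absent difference was 24.4 points (20.6 to 28.1), and it was not taken within groups of DMSO strength. The peaks with AMG510 only stood at 57.5% and those with trametinib only at 62%.

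Motifs of other promoter factors were searched in the same windows. GGGCGG, the core of the SP and KLF site, was present at 63.6% of kept and 57.9% of absent peaks (5.75 points, 1.86 to 9.54). CCAAT, the NF-Y site, was present at 7.83% and 10.2%, with an interval of -4.4 to 0.0295 points. The ETS site CCGGAAGT was present at 2.78% and 1.54% (1.24 points, 0.154 to 2.69), and the AP-1 site TGACTCA at 0.505% and 1.42% (-0.918 points, -1.53 to -0.0408). Within terciles of DMSO fold enrichment every ETS and AP-1 interval included 0. For GGGCGG the differences were 16 points (3.53 to 26) in the weakest tercile and 9.03 (0.454 to 16.8) in the middle. In the strongest tercile it was 2.77 points (-3.06 to 8.6), an interval that includes 0. The intervals for the NRF1 site GCATGCGC, the YY1 site AAGATGGC and the CRE TGACGTCA all included 0. A motif match describes letters in the window and not a bound factor.

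Kept and absent peaks had nearly the same base composition. In 200 bp around the DMSO summit the median GC content was 72.5% and 72%, and the median observed over expected CpG 0.87 and 0.85. Kept summits lay a median of 91 bp after the nearest start and absent ones 78 bp after it. Within the canonical transcript of the nearest gene, 44.8% of kept summits lay in intron 1, 24% upstream, 15.4% in the 5' UTR and 14.3% in a coding exon. Intron 1 was more frequent than among absent peaks by 10.4 points (6.47 to 14.3), and by 15.1 points (9.32 to 20.7) in the strongest tercile. In the middle and weakest terciles the differences were 5.67 points (-2.59 to 14.4) and 6.16 points (-5.64 to 18.9), with intervals that include 0. Starts on both strands within 1 kb, the mark of a divergent gene pair, were found at 110 kept peaks (13.9%) and 11.4% of all other DMSO promoter peaks (difference 2.52 points, 0.0493 to 5.27).

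Called IgG peaks were rare at the kept peaks, and the IgG pileup elsewhere was not measured. A single kept peak of 792 overlapped a peak of the IgG list (0.126%, exact 95% interval 0.0032 to 0.701), against 0.192% of the absent peaks. It was at SNX16, a sorting nexin gene, with 25 tags in IgG, 29 in DMSO c-MYC, 34 in AMG510 and 25 in trametinib. In tags the IgG value there equalled that of trametinib and lay below those of DMSO and AMG510. The IgG library had a lower genome-wide background than the c-MYC libraries, so tags alone do not rank them. In fold enrichment the IgG peak (11.79) stood above the DMSO peak (10.76) and the trametinib peak (9.36). It stood below the AMG510 peak (12.41).

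The functions of the genes were not used by the rule either. Genes were grouped by 18 lists, and for each list the share with a kept peak was taken among the genes with a DMSO promoter peak, to be read against 19.2% of all such genes. Because kept peaks were strong in DMSO, the share was also taken among genes whose strongest DMSO promoter peak was in the strongest tercile, for which it was 39.4% over all genes.

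Ribosomal protein genes had the highest share of these lists. Of 69 with a DMSO promoter peak 55 had a kept one (79.7%, exact 95% interval 68.3 to 88.4), 35 of 43 for the large subunit and 20 of 26 for the small. Among those with a peak in the strongest tercile it was 52 of 58, or 89.7%, where glycolysis and lactate genes had 5 of 5. Genes of this family without a kept peak included RPL4, RPL30, RPLP0 and RPS20, with an AMG510 overlap only, and RPL3, RPL10 and RPS26, with neither. Counted as peaks there were 56, since a peak at the shared MED22 and RPL7A start region was kept beside that of RPL7A. The 56 peaks had median tags of 34.5, 25 and 26 (DMSO, AMG510, trametinib), against 24, 16 and 17 for the 736 other kept peaks. The highest DMSO pileup of any member, 88 tags, was at RPL13, with 32 tags in AMG510 and 49 in trametinib. RPS24 had 63, 32 and 28 tags. RPL32 had 24, 26 and 31 and RPS3 29, 38 and 25, with overlapping intervals.

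Sequence and position set the ribosomal protein peaks apart from the other kept peaks. The summit lay in intron 1 at 52 of 56 (92.9%), against 41.2% of the others. An E-box lay within 100 bp at 8 of 56 (14.3%) and at 29.6% of the others, a difference of -15.3 points (-23 to -3.45). For the 5 forms together the shares were 35.7% and 71.5%, a difference of -35.8 points (-47.4 to -22.2). E-boxes were found at 6 of 20 small-subunit peaks (RPS19, RPS23 and RPSA among them) and at 2 of 36 large-subunit peaks (RPL22 and RPLP1). Median GC content was 66.5% against 73%. The drug summits lay closer to the DMSO summit than elsewhere, with medians of 40.5 bp for AMG510 and 24.5 bp for trametinib against 74 and 60 bp. These peaks were also stronger in DMSO, with a median fold enrichment of 7.86 against 6.48. Over all kept peaks, distances were shorter among those above a fold enrichment of 5 in all 3 lists (50 and 41 bp). Whether the ribosomal protein peaks differ beyond strength was not tested.

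Mitochondrial ribosome genes had few kept peaks, with 2 of 33 genes (6.06%, 0.743 to 20.2), MRPL3 and MRPS5, an interval that includes the 19.2% of all genes. MRPL3 had 60, 46 and 38 tags in DMSO, AMG510 and trametinib, and MRPS5 21, 11 and 13. Of the 12 genes of this list in the strongest tercile 2 were kept (16.7%). Another 14 genes overlapped an AMG510 peak only and 5 a trametinib peak only.

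**Figure D5:**
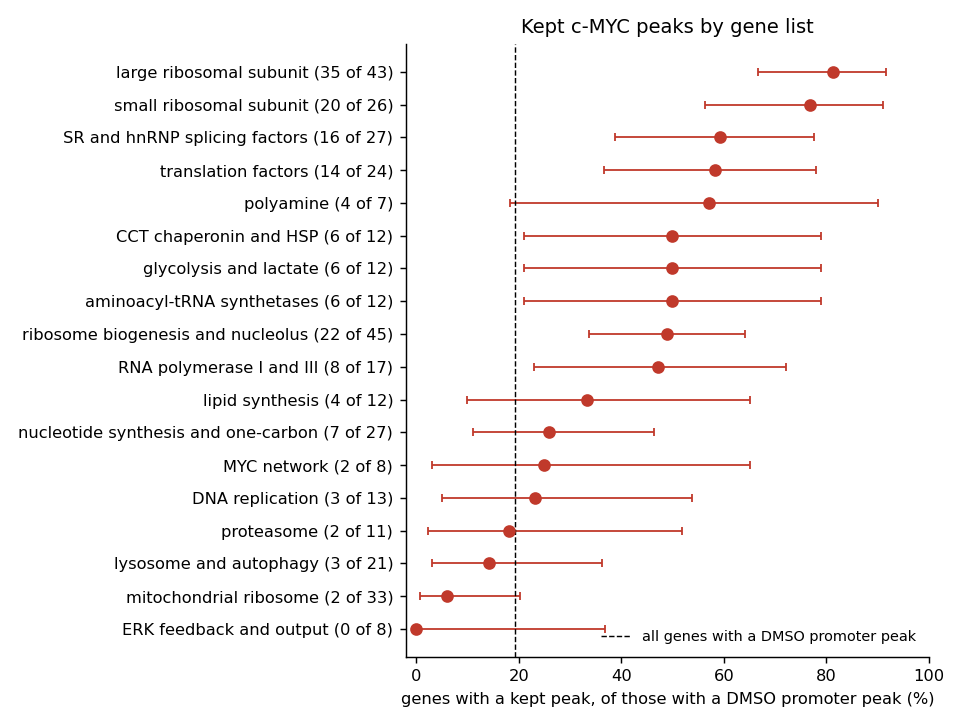
Percent of the genes of each list with a DMSO promoter peak that had a kept one, with exact 95% intervals for counting error only and the counts beside each name. The dashed line is the 19.2% of all such genes. Both cytosolic ribosomal subunits lie above it (81.4% and 76.9%). The mitochondrial ribosome (6.06%) and the ERK feedback list (0 of 8) lie lowest, with intervals that include the line.

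Other parts of the translation machinery also had many kept peaks. For translation factors it was 14 of 24 genes (58.3%, 36.6 to 77.9). EIF5A had 81 tags in DMSO, 39 under AMG510 and 42 under trametinib, and EIF4G1, the scaffold of cap-dependent initiation, 84, 48 and 45. EIF3E and EIF3D, subunits of initiation factor eIF3, had 33, 17 and 27 tags and 35, 19 and 22 tags. For aminoacyl-tRNA synthetases and their partners it was 6 of 12 genes, led by AIMP2 with 53, 17 and 28 tags.

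Ribosome biogenesis had 22 of 45 genes kept (48.9%, 33.7 to 64.2), and 20 of 32 in the strongest tercile. Their 22 peaks had median log2 ratios of -0.82 for AMG510 and -0.80 for trametinib, where all kept peaks had -0.48 and -0.47. Under both drugs 21 of the 22 lay below DMSO, against 602 of all 792 kept peaks. The 22 peaks were also stronger in DMSO, with a median of 33.5 tags against 25, and the rule favoured strong DMSO peaks. Whether the list differs beyond that was not tested. An E-box was near 11 of the 22. NPM1 had 86 tags in DMSO, 42 under AMG510 and 53 under trametinib, and NCL 59, 35 and 36. LTV1 and PNO1, which act in the assembly of the small subunit, had 49, 19 and 32 tags and 52, 27 and 22 tags. RNA polymerase I and III had 8 of 17 genes kept, among them GTF3A (28, 15 and 11 tags) and POLR3D (31, 12 and 16), both of the polymerase III system.

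Shares in the metabolic lists ranged from 25.9% to 57.1%, to be read against 19.2% of all genes with a DMSO promoter peak. The exact intervals of the nucleotide (11.1 to 46.3), polyamine (18.4 to 90.1) and lipid (9.92 to 65.1) lists included 19.2%. That of glycolysis and lactate (21.1 to 78.9) lay above it. In the strongest tercile 7 of 16 nucleotide genes were kept (43.8%), against 39.4% over all genes. There the polyamine list had 3 of 4, lipid synthesis 2 of 4 and glycolysis 5 of 5. Glycolysis and lactate had 6 of 12 genes kept, HK2, SLC2A1 (the glucose transporter, with 46, 26 and 16 tags), ENO1 (45, 20 and 30), LDHA (17, 14 and 11), TPI1 and SLC16A1. Nucleotide synthesis and one-carbon metabolism had 7 of 27 (25.9%), among them CTPS1 with 40, 29 and 21 tags and the neighbouring kinases NME1, with 68, 22 and 22 tags, and NME2, with 65, 24 and 24. Polyamine genes had 4 of 7, ODC1, AMD1, AZIN1 and EIF5A. AMD1, which makes the aminopropyl donor of the pathway, had 44, 16 and 22 tags. Lipid synthesis had 4 of 12, SREBF1 (34, 20 and 16 tags), LSS, KDSR and ACACA.

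RNA and protein handling showed the same spread. SR and hnRNP splicing factors had 16 of 27 genes kept (59.3%, 38.8 to 77.6), and 13 of the 16 in the strongest tercile. HNRNPA2B1, at the divergent start it shares with CBX3, had 76, 28 and 31 tags, HNRNPK 55, 27 and 39, SRSF6 44, 28 and 44 and PTBP1 58, 25 and 22. The CCT chaperonin and HSP list had 6 of 12, with CCT5 at 55, 29 and 35 tags. Proteasome genes had 2 of 11, PSME3 and PSMD14, lysosome and autophagy genes 3 of 21, ATG12, BECN1 and ULK2, and DNA replication genes 3 of 13, MCM3, MCM7 and ORC6. BECN1 and PSME3 share 1 divergent start region.

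In the MYC network 2 of 8 genes with a DMSO promoter peak had a kept one, MXD1 with 41, 20 and 21 tags and MXD3 with 38, 20 and 19. Both encode MAX partners that repress transcription, and both peaks had an E-box within 100 bp of the DMSO summit. None of 8 ERK feedback and output genes with a DMSO promoter peak had a kept one (0%, upper exact limit 36.9%). That list holds DUSP5, DUSP7, SPRY1, SPRED1, ETV4, FOS, FOSL1 and EPHA2, of which SPRED1 and FOSL1 overlapped a trametinib peak only. DUSP2, a nuclear ERK phosphatase that the list does not hold, had a kept peak with 67 tags in DMSO, 20 under AMG510 and 28 under trametinib. The intervals of most lists are wide, because few of their genes had a DMSO promoter peak.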

How the data were processed

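c-MYC ChIP-seq libraries of MIA PaCa-2 cells, 1 per treatment, and 1 IgG library were analysed as the peak lists the authors deposited. Per the labels and the methods, reads were trimmed (Trimmomatic 0.39), aligned to GRCh38 (BWA 0.7.17), filtered at mapping quality (SAMtools 1.9), deduplicated with Picard and converted to intervals (bedtools 2.27.1), and peaks were called per library with MACS2 2.2.7.1. The authors deposited for each peak a score, a fold enrichment (a ratio of the summit pileup to background), a −log10 p-value and a −log10 q-value. Whole-number tags at the summit were solved from the deposited fold enrichment and −log10 p-value, which they returned within 0.0001 at 100% of peaks. The genome-wide background and the shortest peak imply 22700000 to 24800000 tags per library. Both mates of a pair can count as tags, so Poisson intervals are too narrow. Where several drug peaks overlapped a DMSO peak, the one of highest fold enrichment was used.

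Starts and transcripts came from GENCODE version 44, and motifs from the GRCh38 sequence on both strands. Shares carry Wilson intervals, differences of shares Newcombe intervals, and IgG and gene list shares exact intervals, all at 95% (Python 3.11.15, scipy 1.17.1, pysam 0.24.0). With 1 library per group no p-value was computed. Named peaks follow a rule: the 10 highest in all 3 lists, the 10 strongest with an E-box at 3 summits, the 5 lowest and 5 highest ratios, list genes by DMSO fold enrichment, and those at the limits. Genes named beyond that rule were chosen after their values were seen. The members, the gene lists and the tests were chosen with earlier results of these data known. Overlap, window, motif, threshold and scaling choices were varied. Scripts were tested on simulated peaks. Some items are not reported here.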

Additional observations from a re-analysis of the deposited data

How the results depend on the processing

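No paired analysis was possible because a second library exists for none of the groups, so no replicate could be left out either. Of 95 alternative values 69 stayed within the interval of the reported value, or within 1.5 times a count, 26 moved and 0 changed sign. Most of those that stayed were gene list shares, whose intervals are mostly wide (3.19 to 65.1% for the MYC network). Among the alternatives for the peak count, E-box, drug ratio, summit distance and IgG results, more moved than stayed. The 792 kept peaks became 409 where any overlapping peak of each drug had its summit within 100 bp of the DMSO summit (402 for the drug peak of highest fold enrichment), 299 with a fold enrichment above 5 in all 3 lists and 204 with a score above 60 in all 3. Starts, distance and a 50% overlap gave between 730 and 804. The E-box share of 28.5% became 17.6% within 50 bp, 37.1% within 200 bp, 53.2% with CACGCG added, 25.4% around AMG510 summits and 33.4% above a fold enrichment of 5. The E-box difference of 16.3 points became 9.82 within 50 bp, 23.5 with CACGCG added, 12.8 above a DMSO fold enrichment of 5, 7.27 as the mean over terciles and, added after seeing the data, 5.24 over 10 equal groups. The median log2 ratio of -0.48 for AMG510 and -0.47 for trametinib became -0.63 and -0.54 for unscaled tags, -0.32 and -0.30 for the deposited fold enrichment, and -0.56 and -0.56 above a DMSO fold enrichment of 5. Summit distances of 70 and 56 bp became 50 and 41 bp above a fold enrichment of 5. An IgG peak lay within 1 kb at 0.884% of kept peaks. With the strongest DMSO tercile only, added after seeing the data, the kept share was 39.4% for all genes, 100% for glycolysis (5 genes), 50% for lysosome and autophagy (4 genes) and 81.2% for splicing factors. The median of 16 to 25 tags per kept peak limits comparisons of single peaks.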
